A study of Mus musculus with 2 samples.

Results

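Rab GTPases are the largest branch of the small GTPases that direct membrane traffic. The Rab genes were taken as all rows of the deposited gene table whose symbol is Rab followed by a number and at most 1 lower-case letter, which gave 55 of 17827 rows. Values came from 2 libraries of mouse embryonic stem cells of mixed 129SV/C57BL/6 background at passages 10 to 12, 1 from cells labelled Setd2 KO and 1 from wild-type cells. Setd2 encodes the methyltransferase that places trimethylation on histone H3 over transcribed genes, and the study compared the transcriptomes of both genotypes. Neither line had further treatment. Both grew on feeder cells, were cleared of feeder cells in 0.5 h on gelatin, and were collected 2 days after a passage on gelatin. How the gene was disrupted, and whether the knockout line is 1 clone, are not given in the sources used here.

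A Rab protein cycles between a GTP-bound form that sits on a membrane and a GDP-bound form that is held in the cytosol. Exchange factors load it with GTP, the bound form recruits effectors such as tethers and motors, and GTPase-activating proteins switch it off. Each Rab marks a step of transport, from the endoplasmic reticulum through the Golgi to the surface and back through endosomes to lysosomes. Stem cells, like all dividing cells, use the housekeeping members, while others are best known from secretory, pigment, epithelial or nerve cells.

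The level of a gene is given as CPM, its share of all reads over genes scaled to a total of 1000000, where a read equivalent is 76 sequenced bases over the gene. The knockout library held 52041677 read equivalents and the wild-type library 56129838, so 1 CPM stood for 52.04 of them in knockout cells and 56.1 in wild-type cells. Setd2 was at 174 CPM in knockout cells, against 452 CPM in wild-type cells, so that the knockout level was 38.5% of it (37.6 to 39.4% as a 95% counting interval). The value sums reads over the whole gene, and the sources used here do not say which exons the knockout affects. The libraries stood apart in other ways as well: the summed level of Ddx3y, Eif2s3y and Uty on chromosome Y was 309 CPM in knockout cells, against 0.817 CPM in wild-type cells, and the 719 genes compared on chromosome 8 had a median log2 fold of -0.35, against 0.05 for all 13523 genes compared. With 1 library of each genotype no test between genotypes was possible, intervals cover counting error only, and every difference describes these 2 libraries. Of 14 pluripotency markers all passed a mean of 1 CPM, and their summed level was 4330 CPM in knockout cells, against 4730 CPM in wild-type cells. Of these 14, 11 were below 0, with a median log2 fold of -0.22, Utf1 lowest at -0.77 and Nanog highest at 0.49.

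The sequences that make a gene a Rab were looked at first, since the rule used the symbol alone. All 55 members matched a complete coding sequence in the GENCODE annotation of NCBIM37, the assembly also called mm9. Where a gene had several, the longest was used. In 50 of the 55 the coding strand held, in frame, a 15-base motif that covers the family's strongly conserved stretch next to the bound nucleotide. The motif has the letters of the first 15 bases shown here, with any base allowed at the last position of each codon but the first, and the other strand was not searched. It was found in 70 of 21370 coding genes (0.328%) and in 0 of 27 Arf, Arl and Sar GTPase genes, the sister family of membrane traffic. The 5 members without it were Rab28, Rab32, Rab38, Rab40b and Rab40c. The next codon was cag or caa, for the glutamine that helps cleave GTP, in 47 of the 50. Rab25 had ctg, Rab20 cgg and Rab24 tcc there. The stretch is shown for Rab25, for the Rab11 genes that are its closest relatives, and for Rab4a and Rab12, which had the lowest and the highest log2 fold among members of at least 10 CPM. Capitals mark the codon after the stretch, and coding bases are counted from the start codon.
Rab25 (coding bases 196 to 222): tgggacacggccggcCTGgagagatac
Rab11a (coding bases 193 to 219): tgggacacagcagggCAGgagcggtac
Rab11b (coding bases 193 to 219): tgggacactgctggcCAGgagcgctac
Rab4a (coding bases 199 to 225): tgggacacggccggcCAGgagcggttc
Rab12 (coding bases 427 to 453): tgggacacagcagggCAGgagcgattt

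The coding end carries the cysteines to which the lipid anchors are attached. Among the last 4 codons before the stop, 40 of the 55 members had at least 2 cysteine codons (tgt or tgc) and the other 15 had 1. Across 21370 coding genes 1.36% had at least 2. The last 24 coding bases, stop codon included, are shown for members with a pair of cysteine codons next to each other, a split pair and a single one. They come from the longest coding sequence of each gene, as for Rab8a, and its end may not be that of the main form. Whether the marked codons carry the lipid was not tested. Capitals mark cysteine codons. Rab25 also has a pair, but only 1 of its codons lies among the last 4, so that it counts among the 15.
Rab1: cagtcaggtggaggcTGCTGCtaa
Rab12: agaccacacgtccgaTGCTGTtga
Rab4a: agtgcacaggagTGTggcTGCtag
Rab25: agggccTGTTGCatcagcctctga
Rab8a: atgggagtcTGCgattcagactga
Rab23: ttcagcagcTGTagtgtaccctaa

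All 55 Rab genes had reads in both libraries, and the 6 most abundant members held 50.2% of the Rab read equivalents in knockout cells and 48.0% in wild-type cells. Together the 55 took 0.210% of all read equivalents in knockout cells (exact binomial interval 0.209 to 0.212%) and 0.184% in wild-type cells (0.183 to 0.185%), 2104 CPM in knockout cells and 1837 in wild-type cells, a ratio of 1.15. Rab1, which tethers vesicles between the endoplasmic reticulum and the Golgi, alone held 18.2% of the Rab read equivalents in knockout cells and 16.1% in wild-type cells. It accounted for 32.6% of the difference between the summed levels, and Rab6 for 14.0%. Without Rab1 the ratio of the sums was 1.12. A bulk library cannot tell fewer cells of a type from less RNA per cell.

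To compare genes with each other, levels were divided by exon length in kilobases. Rab1 led at 100.2 CPM per kilobase in knockout cells and 77.3 in wild-type cells. Rab18, which works at the endoplasmic reticulum and lipid droplets, followed at 49.8 CPM per kilobase in knockout cells and 45.5 in wild-type cells. Rab7, the marker of late endosomes, was at 48.2 CPM per kilobase in knockout cells and 44.7 in wild-type cells, with 55% of its exon windows matching other places in the genome, so that its level is uncertain. Rab6, of transport within and from the Golgi, stood at 47.7 in knockout and 37.7 CPM per kilobase in wild-type cells. Rab5a, of early endosomes, was at 41.2 CPM per kilobase in knockout cells and 34.3 in wild-type cells, also with 55% of windows shared, and Rab10, of delivery to the surface, at 36.5 CPM per kilobase in knockout cells and 34.0 in wild-type cells. The same 6 genes headed both libraries, and they cover the main stations of the route through the cell. In the order of levels, Rab18, Rab7 and Rab6 lay closer to each other in knockout cells than Rab1 lay to any of them.

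At the other end, 8 members did not reach a mean of 1 CPM: Rab3c, Rab9b, Rab19, Rab27b, Rab33a, Rab36, Rab40b and Rab44. Rab27b, a secretory granule gene, had 2 read equivalents in each library. Rab3c, a synaptic vesicle gene, had 23 read equivalents in knockout cells and 1 in wild-type cells, a ratio of 24.8 (interval 4.03 to 1022). Rab9b had 11 in knockout cells and 3 in wild-type cells, and Rab19 had 16 in knockout cells and 38 in wild-type cells. These counts leave their differences poorly measured. Rab20 and Rab32 passed 1 CPM through the knockout library only, Rab20 with 1.19 CPM there against 0.854 CPM in wild-type cells and Rab32 with 1.596 CPM there against 0.944 CPM.

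**Figure D1:**
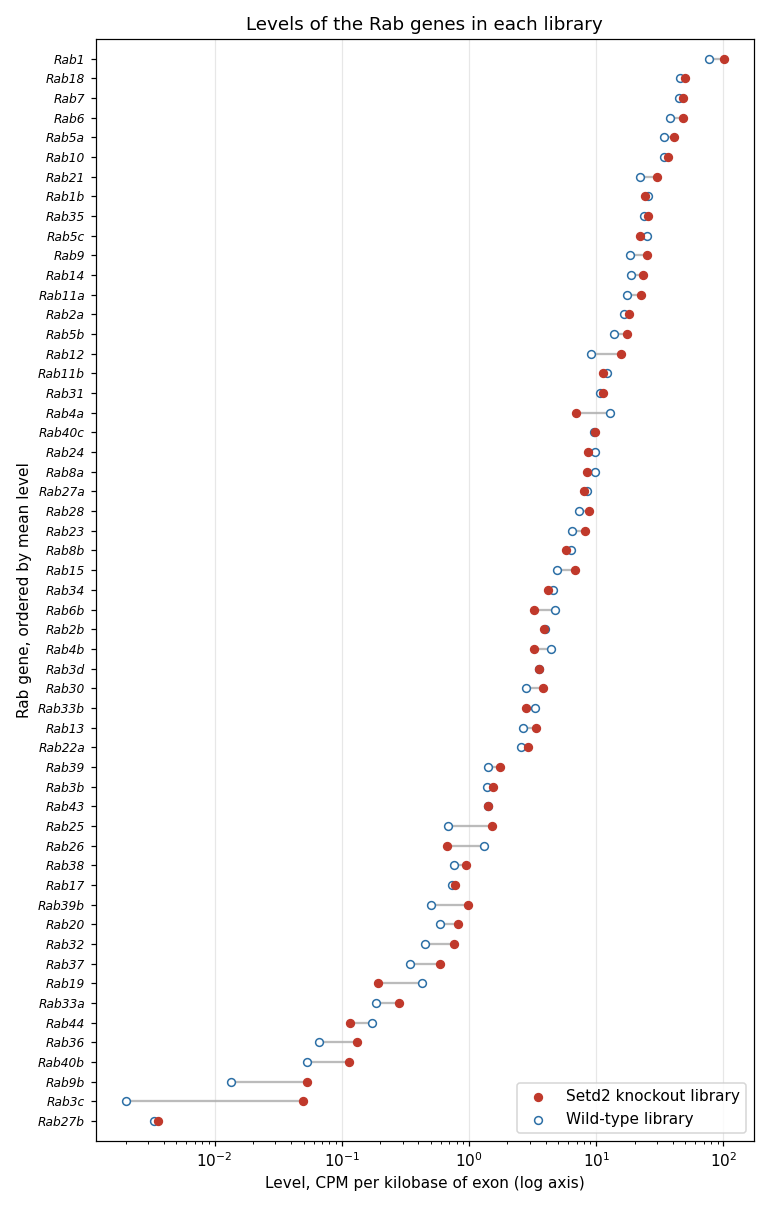
Level of each of the 55 Rab genes in CPM per kilobase of exon (log axis), Setd2 knockout library as filled points and wild-type library as open points, 1 library each. Rab1 leads at 100.2 in knockout cells and 77.3 in wild-type cells, and the points of most members lie close together over the whole range.

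Members with many CpG just upstream of the gene tended to be the more abundant ones. RefSeq promoters (250 bases before the start, from the GRCm38.p6 table, placed here by exact match in NCBIM37) were found for 44 of the 55 members. They held between 3 and 40 CpG, with a median of 18. At least 10 CpG, a limit chosen after the values were seen, were present in 32 of the 44 (72.7%), against 64.2% of 12676 promoters of all genes. The mean level of those 32 members had a median of 8.69 CPM per kilobase, and that of the 12 others 0.923. Among genes of at least 1 CPM the shares with at least 10 CpG were alike, 76.9% of 39 members and 76.6% of all 9582 genes. Over the 44 members the Spearman rho of CpG number with mean level was 0.57, and over the 12676 genes it was 0.47. These are descriptions over genes that share both libraries. The CpG number had a rho of -0.22 with the log2 fold over the 44 members and of 0.02 over all genes with a promoter. Among those of at least 1 CPM it was -0.24 for the 39 members and -0.01 for all genes. Promoters are shown for the most abundant member and for 3 members that differed by at least 1.5-fold, with CpG in capitals.
Rab1 (chr11:20101165-20101414, plus strand, 23 CpG): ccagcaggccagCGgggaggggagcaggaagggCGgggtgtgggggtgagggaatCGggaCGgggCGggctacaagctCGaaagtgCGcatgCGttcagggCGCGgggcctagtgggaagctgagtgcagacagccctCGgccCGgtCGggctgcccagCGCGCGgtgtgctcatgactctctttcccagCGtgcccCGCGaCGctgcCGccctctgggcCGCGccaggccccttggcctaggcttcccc
Rab12 (chr17:66869011-66869260, minus strand, 26 CpG): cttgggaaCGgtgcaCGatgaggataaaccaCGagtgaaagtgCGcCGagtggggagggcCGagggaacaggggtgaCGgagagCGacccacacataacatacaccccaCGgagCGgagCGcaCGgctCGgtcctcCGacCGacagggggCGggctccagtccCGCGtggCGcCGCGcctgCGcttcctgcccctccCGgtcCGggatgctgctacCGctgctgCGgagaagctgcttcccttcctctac
Rab25 (chr3:88352202-88352451, minus strand, 8 CpG): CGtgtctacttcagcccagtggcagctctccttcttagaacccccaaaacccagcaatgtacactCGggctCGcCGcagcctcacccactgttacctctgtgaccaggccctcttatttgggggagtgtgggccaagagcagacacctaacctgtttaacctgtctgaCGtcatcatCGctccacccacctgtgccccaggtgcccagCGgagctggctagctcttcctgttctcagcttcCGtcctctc
Rab39b (chrX:72823571-72823820, minus strand, 8 CpG): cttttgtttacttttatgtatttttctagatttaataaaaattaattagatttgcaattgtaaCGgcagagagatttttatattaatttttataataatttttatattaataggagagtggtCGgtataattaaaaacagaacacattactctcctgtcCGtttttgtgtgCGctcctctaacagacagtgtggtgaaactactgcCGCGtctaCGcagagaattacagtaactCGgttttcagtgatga

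The comparison set the Rab transcripts of the library labelled Setd2 KO, in which Setd2 reads remained, against those of the wild-type library. Most Rab genes stood close together, and no member over the floor was 2-fold apart on the scale used for counting. The log2 fold is that of knockout over wild-type CPM with 0.5 CPM added to each, which understates the folds of low genes such as Rab25, whose ratio without the added value was 2.21. Among the 47 Rab genes over the floor of 1 CPM (mean of both libraries), 0 lay 2-fold or more above wild type and 0 lay 2-fold or more below it, where 1.76% and 2.11% of all genes compared were. At 1.5-fold, 4 of 47 were higher, against a background of 7.42%, and 2 of 47 were lower, against 6.77%. The shares among Rab genes were therefore near those among all genes. The median log2 fold of the 47 was 0.14, and 31 lay above 0 (65.96%), beside a median of 0.05 and 56.4% above 0 for all genes. Among the 31, Rab20 and Rab32 passed 1 CPM through the knockout library only, which sets their folds above 0. The counting interval of the ratio lay above 1 for 25 members and below 1 for 9, and it held 1 for 13. Of all genes compared, 41.8% had an interval above 1 and 31.5% one below 1, beside 53.2% and 19.1% of the Rab genes, so an interval that leaves out 1 was common at this depth.

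Of 8 recycling endosome members 1 was at least 1.5-fold higher and 1 at least 1.5-fold lower, beside 7.42% and 6.77% of all genes. Their median log2 fold was 0.07. Rab25, known from epithelial cells, had 2.52 CPM in knockout cells, against 1.14 CPM in wild-type cells. That is 131 read equivalents in knockout cells and 64 in wild-type cells, a ratio of 2.21 (1.63 to 3.03) and a log2 fold of 0.88. Its closest relatives were far more abundant. Rab11a, the general recycling Rab, had 66.9 CPM in knockout cells, against 52.4 CPM in wild-type cells, a ratio of 1.28 (1.21 to 1.34). Rab11b had 30.004 CPM in knockout cells and 32.1 in wild-type cells, a ratio of 0.935 (0.873 to 1.00), with 55% of its windows shared. Rab25 was identical to Rab11a at 62.1% and to Rab11b at 68.2% of aligned coding bases, and 0% of its windows matched elsewhere, so its reads could be told from theirs.

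Rab4a, which returns receptors quickly from early endosomes to the surface, had the lowest log2 fold of the 47 with 0.5 CPM added, while with 0.1 CPM added Rab26 was lower, at -0.92 beside -0.87. It was at 12.2 CPM in knockout cells, against 22.5 CPM in wild-type cells, 54.4% of the wild-type level (interval 49.4 to 59.9%), with a log2 fold of -0.85. Its paralog Rab4b was lower too, with 6.38 CPM in knockout cells, against 8.70 CPM in wild-type cells, a ratio of 73.4% (63.6 to 84.5%). Both genes of this pair were thus lower in knockout cells. Of the exon length of Rab4b, 69.4% overlapped other gene models on the same strand, so that its level is uncertain. Rab15, an endosomal Rab known from neural cells, was higher at 31.2 CPM in knockout cells and 22.5 CPM in wild-type cells (log2 fold 0.46). Rab35, of endosomes and the cell surface, had 71.4 CPM in knockout cells and 66.2 in wild-type cells, and Rab17, an epithelial member, 1.53 CPM in knockout cells and 1.48 in wild-type cells. The interval of Rab17 held a ratio of 1.

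Rab4a lies on chromosome 8, whose genes were lower as a group. Of its 719 compared genes 591 were below 0, and 63 had a lower log2 fold than Rab4a. Within 1000 kb of its start, 29 of the 32 other compared genes were below 0, with a median of -0.47, and 3 were lower than Rab4a. The compared genes that flank it, Rhou and 1700054N08Rik, were at -0.31 and -0.41. The part of the chromosome in the value of Rab4a was not tested. Chromosome 8 carried 2 other members. Rab8a, which delivers vesicles to the cell surface and the cilium, had 39.5 CPM in knockout cells, against 46.1 CPM in wild-type cells (log2 fold -0.22), and Rab20, of early endosomes and phagosomes, had 1.19 CPM in knockout cells and 0.854 in wild-type cells (0.32, interval of the ratio 0.940 to 2.07). Rab20 passed 1 CPM through the knockout library only, and its interval held a ratio of 1. Of its exon length 21.5% overlapped a gene model on the opposite strand. On chromosome X, where the median of 506 compared genes was 0.17, Rab9 had 43.9 CPM in knockout cells and 32.3 in wild-type cells (0.44). Rab39b, also on chromosome X, was above 0 as well. Rab9b and Rab33a were above 0 too, but both were under the floor of 1 CPM and not among the compared genes. The interval of Rab33a held a ratio of 1.

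**Figure D2:**
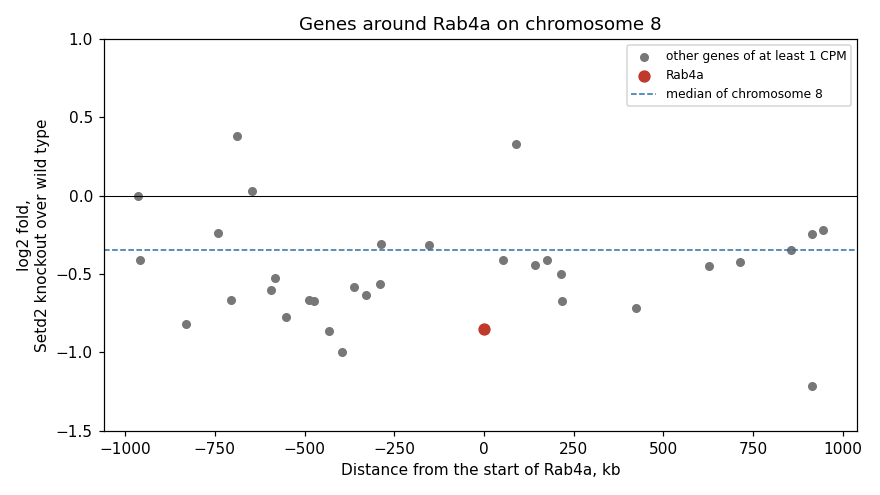
Log2 fold (Setd2 knockout over wild type) of compared genes against distance from the start of Rab4a in kb, with the median of chromosome 8 as a dashed line. Rab4a lies at -0.85, and 29 of the 32 other genes lie below 0.

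Of 8 early endosome members none was 1.5-fold apart, a number too small to set against the 7.42% and 6.77% of all genes. The log2 fold was above 0 for 7 of the 8, beside 56.4% of all genes compared, with a median of 0.28. Rab20, 1 of these 7, passed 1 CPM through the knockout library only, which sets its fold above 0. The summed level of the 8 was 446 CPM in knockout cells, against 381 CPM in wild-type cells. Rab21, which carries integrins from the surface, had the largest fold at 55.0 CPM in knockout cells and 39.9 in wild-type cells (0.46). Rab14, of traffic between endosomes and the Golgi, had 126 CPM in knockout cells and 103 in wild-type cells (0.29). Rab5b had 54.8 CPM in knockout cells and 43.4 in wild-type cells (0.33), with 85% of windows shared. Rab5c was the only member of the group below 0, at 48.6 CPM in knockout cells, against 54.7 CPM in wild-type cells (-0.17). The intervals of Rab20 and Rab31 held a ratio of 1.

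The log2 fold was above 0 for 5 of 10 genes of the endoplasmic reticulum and Golgi, beside 56.4% of all genes compared. Among the 5 below 0, Rab1b, Rab2b and Rab43 had intervals that held a ratio of 1. Rab1 had 382 CPM in knockout cells, against 295 CPM in wild-type cells, a ratio of 1.30 (1.27 to 1.32). Rab6 had 178 CPM in knockout cells and 140 in wild-type cells, a ratio of 1.27 (1.23 to 1.30). Rab1 and Rab6 both stood high on abundant transcripts, where counting error is small. Of the exon length of Rab6, 19.0% overlapped Mrpl48 on the opposite strand, and whether counting used strand is not known. Rab6b, a form of Rab6 best known from neurons, was at 15.3 CPM in knockout cells, against 22.4 CPM in wild-type cells, 68.2% of the wild-type level (62.3 to 74.6%). It had the largest absolute log2 fold of the group, -0.54, opposite in sign to Rab6. Rab33b, which recruits autophagy proteins, was at 8.83 CPM in knockout cells and 10.4 in wild-type cells (-0.22), and Rab30, of the Golgi, at 8.02 CPM in knockout cells and 5.93 in wild-type cells (0.40).

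Of 11 exocytosis members 2 were at least 1.5-fold higher and 1 was at least 1.5-fold lower, beside the 7.42% and 6.77% of all genes, and each of these 3 was at a low level. Rab39b, a mainly neuronal Rab, had 3.34 CPM in knockout cells, against 1.70 CPM in wild-type cells, or 174 read equivalents in knockout cells and 96 in wild-type cells (log2 fold 0.80, ratio 1.95, interval 1.52 to 2.54). Of its exon length 18.6% overlapped a gene model on the opposite strand, and the sources used here do not say whether counting used strand. Rab37, of secretory granules, had 3.14 CPM in knockout cells and 1.82 in wild-type cells (0.65, ratio 1.73, interval 1.35 to 2.24). Neither call held under every setting: the log2 fold of Rab39b was 0.58, under 1.5-fold, with the medians of genes of like GC subtracted, and that of Rab37 was 0.55 with 1 CPM added. Rab26, also of secretory granules, was lower, with 1.07 CPM in knockout cells, against 2.11 CPM in wild-type cells (-0.73), 51.2% of the wild-type level (36.6 to 70.9%). Of the more abundant members of this group, Rab8a and Rab8b had ratios of 0.856 (0.808 to 0.908) and 0.902 (0.840 to 0.969). Rab10 had 128 CPM in knockout cells and 119 in wild-type cells, Rab27a 23.8 CPM in knockout cells and 25.2 in wild-type cells, and Rab3d 14.9 CPM in both libraries.

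Rab12, which acts between recycling endosomes and lysosomes, had the highest log2 fold among members of at least 10 CPM. It was at 47.2 CPM in knockout cells, against 27.2 CPM in wild-type cells, or 2454 read equivalents in knockout cells and 1528 in wild-type cells, a ratio of 1.73 (1.62 to 1.85) and a log2 fold of 0.78. None of its windows was shared (0%). Its nearest compared neighbours, 1110012J17Rik and Ptprm, were at 0.11 and 0.26, but both were under 2 CPM and lay 109 and 147 kb away. The part of the region in the value of Rab12 was not tested. Among late endosome and lysosome genes Rab7 had 126 CPM in knockout cells and 117 in wild-type cells (0.11), Rab9, which returns receptors to the Golgi, led with 0.44, and Rab24, linked to autophagy, had 16.1 CPM in knockout cells and 18.1 in wild-type cells (-0.16). Of the pigment granule genes, Rab32 had a log2 fold of 0.54 and Rab38 one of 0.23, both under 2 CPM. Rab32 passed 1 CPM through the knockout library only. Rab23, an inhibitor of hedgehog signalling in the mouse, had 67.2 CPM in knockout cells and 53.2 in wild-type cells (0.34), Rab28 15.6 CPM in knockout cells and 12.9 in wild-type cells (0.26), and Rab34 9.88 CPM in knockout cells and 10.8 in wild-type cells (-0.13).

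**Figure D3:**
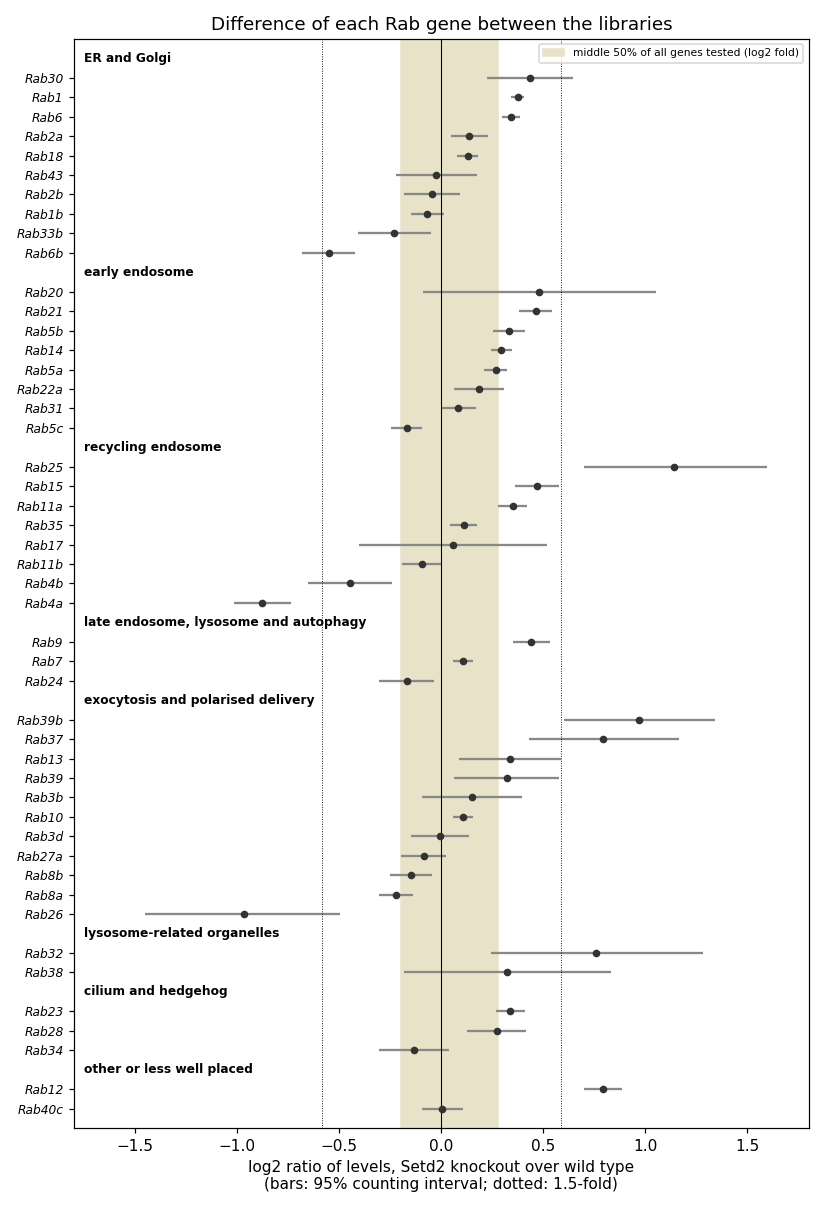
Log2 ratio of levels (Setd2 knockout over wild type, no value added) of the 47 Rab genes of at least 1 CPM, grouped by site of action, with 95% counting intervals and the middle 50% of all genes as a band. Rab25, Rab39b, Rab37 and Rab12 lie at the right, Rab26 and Rab4a at the left.

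Paralogs of one Rab differed from each other in several families. Within pairs, shares were computed on CPM per kilobase with the counting interval of the pair. Rab1 made up 80.5% of Rab1 and Rab1b in knockout cells (79.8 to 81.1%) and 75.2% in wild-type cells (74.4 to 75.96%). Rab11a made up 66.3% of its pair in knockout cells (64.97 to 67.7%) and 59.1% in wild-type cells (57.7 to 60.5%). Rab6b made up 6.34% of its pair in knockout cells (5.91 to 6.78%) and 11.1% in wild-type cells (10.6 to 11.8%). Rab39b made up 35.8% of Rab39b and Rab39 in knockout cells (31.5 to 40.4%) and 26.3% in wild-type cells (21.8 to 31.2%). Rab4a made up 68.3% of its pair in knockout cells (65.3 to 71.1%) and 74.4% in wild-type cells (72.3 to 76.3%). These intervals cover counting error only, and pairs of other genes were not compared in this way. For Rab8a the share was 59.5% in knockout cells and 60.8% in wild-type cells, and for Rab2a it was 82.4% in knockout cells and 80.4% in wild-type cells, with intervals that overlapped. Rab5a, Rab5b and Rab5c held 51.1%, 21.4% and 27.5% in knockout cells, against 47.0%, 18.8% and 34.2% in wild-type cells. No interval was computed for these 3 shares. They are uncertain, since 55% of the windows of Rab5a and 85% of those of Rab5b were shared. The shares of the Rab11 and Rab4 pairs are uncertain too. Rab11b had 55% of its windows shared, and 69.4% of the exon length of Rab4b overlapped other gene models.

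**Figure D4:**
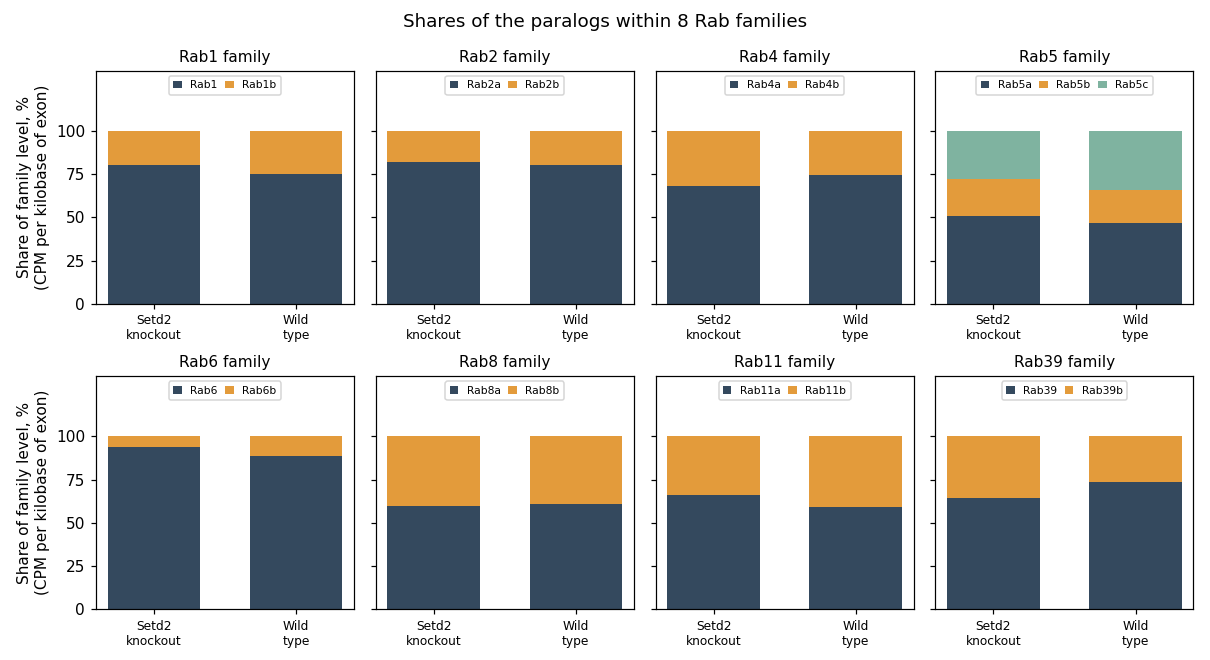
Share of each paralog in the summed level of its Rab family (percent of CPM per kilobase of exon), Setd2 knockout bar left of the wild-type bar, 1 library each, for the 8 families with every member over 1 CPM. The Rab1, Rab6 and Rab11a shares are larger in the knockout bars, and that of Rab5c is smaller. Levels of Rab5a, Rab5b, Rab11b and Rab4b are uncertain because of shared windows or overlapping gene models.

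The base composition of the exons moved with these differences. Over 12788 compared genes with a gene model, exon GC content and log2 fold had a Spearman rho of -0.33, and over the 47 Rab genes it was -0.40, given as descriptions of genes within the same libraries. Of Rab genes under 45% GC, 11 of 12 were above 0, and of those with 52% or more, 7 of 17 were, beside 75.8% and 40.3% of all genes in the same ranges. In 7 of 8 families with every member over 1 CPM, the paralog with the lowest GC had a higher log2 fold than the one with the highest, and Rab4 was the exception. Over all 13 families the count was 10. The paralogs were close in GC in Rab2 (44.4 and 45.5%) and Rab39 (40.0 and 41.2%), and in Rab8 the folds were close (-0.15 and -0.22). The part of GC content in these values was not tested. Rab1 has 40.9% GC and Rab1b 58.4%. When the median fold of genes of like GC was subtracted, Rab1 was at 0.19 and Rab1b at 0.08, Rab11a at 0.12 and Rab11b at -0.07. Rab6 and Rab6b remained apart at 0.19 and -0.59, and Rab25, Rab12 and Rab4a were at 0.92, 0.74 and -0.81. The median of the 47 was then 0.09.

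**Figure D5:**
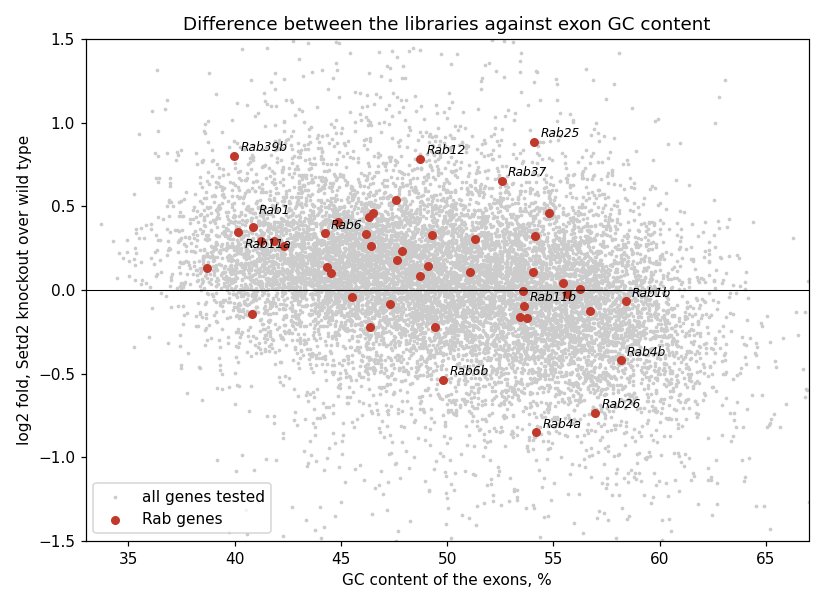
Log2 fold (Setd2 knockout over wild type) against exon GC content in percent, all compared genes in grey and Rab genes in red. The cloud slopes down from left to right. Rab25, Rab39b, Rab12 and Rab37 were at least 1.5-fold higher and Rab4a and Rab26 at least 1.5-fold lower, as were 7.42% and 6.77% of all genes compared.

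Genes that handle Rab proteins were taken from lists. Of 6 genes for lipid attachment and membrane extraction, 0 were 1.5-fold apart, a number too small to set against the 7.42% and 6.77% of all genes. Chm, the escort protein that presents new Rabs for prenylation, had 58.8 CPM in knockout cells, against 40.3 CPM in wild-type cells (log2 fold 0.54, interval of the ratio 1.38 to 1.54). Rabggtb, the catalytic chain of the transferase, had 75.7 CPM in knockout cells and 104 in wild-type cells (-0.45), while its partner Rabggta had 35.7 CPM in both. Gdi2, which extracts GDP-bound Rabs, had 548 CPM in knockout cells and 462 in wild-type cells (0.24). The escort and the transferase subunit thus stood on opposite sides of 0.

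Of 36 exchange factor genes 0 were 2-fold higher and 1 was 2-fold lower, beside 1.76% and 2.11% of all genes compared. Their median was -0.06. The lower one was Dennd4b, an exchange factor for Rab10, at 1.13 CPM in knockout cells and 3.04 in wild-type cells (37.2%, interval 27.2 to 50.3%). Rin1, which acts on Rab5, was at 5.65 CPM in knockout cells, against 8.39 CPM in wild-type cells (-0.53). Of 14 TRAPP subunits, the exchange complex for Rab1, 0 passed 1.5-fold, beside 7.42% higher and 6.77% lower among all genes. Their median was 0.11. Of 35 GTPase-activating protein genes 0 were 2-fold higher and 1 was 2-fold lower, beside 1.76% and 2.11% of all genes. Their median was -0.02. Tbc1d8b was at 16.0 CPM in knockout cells and 34.3 in wild-type cells (46.6%, 42.9 to 50.6%). Tbc1d9 and Grtp1, with log2 folds of -0.60 and -0.48, lie on chromosome 8. Of 39 effector genes 1 was 2-fold higher and 0 were 2-fold lower, beside 1.76% and 2.11% of all genes. Their median was 0.01, and it was -0.08 once the medians of genes of like GC were subtracted. Sytl2, a Rab27 effector of granule secretion, was at 4.36 CPM in knockout cells, against 1.40 CPM in wild-type cells, a ratio of 3.14 (2.42 to 4.11). Rab11fip5, an effector of Rab11, had 20.2 CPM in knockout cells and 29.7 in wild-type cells (-0.54), and Rab11fip1, on chromosome 8, 118 CPM in knockout cells and 165 in wild-type cells (-0.48). Myo5b, the motor of recycling endosomes, had 12.4 CPM in knockout cells and 8.56 in wild-type cells (0.51).

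Markers of other cells moved with the comparison. Of 8 primitive endoderm markers over 1 CPM, all 8 were below 0 and 5 were 2-fold lower, beside 2.11% of all genes. The summed level over 12 markers was 337 CPM in knockout cells, against 437 CPM in wild-type cells, with Afp listed at 0 in both. Most of both sums was Lrp2, at 304 CPM in knockout cells and 312 CPM in wild-type cells (log2 fold -0.04). The sums therefore say little about the other markers. The median log2 fold of the 8 was -1.19, with Cubn lowest at -3.62 and Lrp2 highest. Of 12 fibroblast markers, standing for feeder cells, 10 were below 0, with a summed level over 14 of 216 CPM in knockout cells and 257 in wild-type cells and Lum listed at 0 in knockout cells. Their part in the Rab values was not tested.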

How the data were processed

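RNA was isolated with RNeasy columns and made into Illumina libraries, per the labels' protocols. The submitters' processing notes name TopHat 1.0.13, CASAVA 1.6.0 and the mm9 build. The treatment of reads that align to several places was not stated in the sources used. The authors deposited log2 values under a header that says RPKM. The values were read as log2(x + 1) of read equivalents, since 85.7% of low values in the knockout and 85.9% in the wild-type library were whole multiples of 1 base in 76, within 0.05 of a base. They were scaled to CPM. Of 10 repeated symbols the row with the higher mean was kept, which left 17817 genes.

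Genes whose mean over both libraries reached 1 CPM were compared with 0.5 CPM added. Ratios have exact conditional binomial 95% intervals on rounded read equivalents. These cover counting error only. Without molecular identifiers, reads do not stand for independent molecules. With 1 library per genotype no p-value was computed. Exon length, GC content and overlaps came from GENCODE models, which matched 94.6% of rows. From each gene 20 exon windows of 76 bases were aligned to NCBIM37 with minimap2 2.31, and a window was shared if another place matched with at most 2 mismatches. Coding sequences were aligned pairwise with Biopython 1.88. The procedure was tested on simulated libraries.

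Full values are given for Rab genes at least 1.5-fold apart, the 6 highest per kilobase, those on chromosome 8, the largest fold of each site of action and paralogs, and for 2-fold or leading genes of each pathway list. Others were named after their values were seen. Members and lists were chosen with earlier results of these data known. The sites of action follow textbook knowledge.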

Additional observations from a re-analysis of the deposited data

How the results depend on the processing

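No paired analysis was possible because only 1 library stands for each genotype, which also means that neither could be left out. Subtracting the median fold of genes in the same of 20 GC bins was added after the data were seen. The other settings were pseudocounts of 0.1 and 1 CPM, a floor of 5 CPM or none, scaling by the median ratio, a trimmed mean or the upper quartile, summing repeated symbols, and leaving out chromosome 8 or the 15 members with shared windows. The median of the Rab genes stayed between 0.07 (trimmed mean) and 0.16 (without shared windows). With a floor of 5 CPM, which leaves 37 members, 1 Rab gene was 1.5-fold higher and 1 lower. Without chromosome 8, 1 was 1.5-fold lower. With a pseudocount of 0.1 CPM, 1 (Rab25) was 2-fold higher. The log2 fold of Rab12 stayed between 0.72 and 0.79, that of Rab4a between -0.91 and -0.81, that of Rab25 between 0.72 and 1.08 and that of Rab39b between 0.58 and 0.93. The number of 2-fold higher effector genes was 0 with a floor of 5 CPM, and the number of 2-fold lower exchange factor genes was 0 with that floor, with a pseudocount of 1 CPM and with the GC medians subtracted. The counts at 1.5-fold otherwise lay between 3 and 5 higher and between 2 and 3 lower. Rescaling moved all folds by -0.05 (median), -0.06 (trimmed mean) and -0.04 (upper quartile). Depth limits the 8 members under 1 CPM.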

Other observations

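Relatives of the Rab family outside the naming rule were also measured. Of 7 Rab-like and atypical Rab genes over 1 CPM, 6 were above 0, beside 56.4% of all genes compared, with a median log2 fold of 0.26. Among these 7, 0 were 1.5-fold apart, a number too small to set against the 7.42% and 6.77% of all genes. Rabl5, an intraflagellar transport subunit, was at 32.0 CPM in knockout cells, against 23.9 CPM in wild-type cells (0.41). Of 26 Arf, Arl and Sar GTPase genes, 1 was 2-fold higher and 0 were 2-fold lower, beside 1.76% and 2.11% of all genes. Their median was 0.16, and it was 0.03 once the medians of genes of like GC content were subtracted. The 2-fold higher gene was Arl4c, which acts at the plasma membrane. It was at 38.3 CPM in knockout cells, against 17.3 CPM in wild-type cells, a ratio of 2.21 (2.05 to 2.39). Arl10 and Arl3, a cilium gene, were lower, with log2 folds of -0.72 and -0.61.

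Promoters of the Rab genes under 1 CPM had fewer CpG. The 5 with a promoter had a median of 7 CpG, against 19 for the 39 over 1 CPM, and over all genes the medians were 4 and 16.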
